A study of Homo sapiens with 4 samples.

Results

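The TRIM (tripartite motif) proteins are a family of ubiquitin ligases, and their genes were followed in SNU638, a human gastric cancer cell line, after exposure to interferon gamma (IFN-γ). Members were the protein-coding genes whose symbol is TRIM, a number and at most 1 further letter, and whose counts summed over the 4 libraries reached 40. Of 72 such symbols in a table of 46427 genes, 49 reached that sum and all 49 passed the filter on low counts, among 17781 genes tested. The other 23 stayed under it, 14 with 0 counts in every library and 9 with a few, of which TRIM29 came closest at 34 summed counts. At the other side of the limit TRIM54 entered with 25, 0, 18 and 0 counts, in the order control replicates 1 and 2, then YTHDF1 replicates 1 and 2. That order is kept in every list of 4 values that follows.

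Cells carried a control vector or a vector for YTHDF1, a cytoplasmic reader of N6-methyladenosine in RNA, with 2 biological replicates of each. All 4 cultures were kept without serum for 24 h and then received IFN-γ at 10 ng/ml, for 8 h by the sample labels and for longer by the paper's figure legends. No cells without IFN-γ were among the samples, so the values are levels under the cytokine and hold no measure of induction. Poly(A) RNA was sequenced as stranded libraries that held between 57398137 and 60864942 counted reads. YTHDF1 itself stood at 82.2 and 80.3 CPM (counts per 1000000 of the scaled library) in the control libraries and at 16489 and 2627 CPM in the YTHDF1 libraries, so the overexpression differed between the replicates. Among epithelial markers EPCAM lay between 241 and 284 CPM and KRT8 between 2080 and 3817 CPM. Another, CLDN4, was at 55.0, 0.93, 56.6 and 0.99 CPM. The immune markers PTPRC and CD3E had at most 11 counts in a library, while CD68 lay between 5.16 and 6.08 CPM. The fibroblast marker COL1A1 was at 10.7, 5.69, 10.9 and 5.81 CPM. Across all genes tested the libraries that shared a replicate number were closer to each other (Pearson r of log2 CPM 0.991 for both numbers) than the libraries that shared a vector (0.914 for control and 0.916 for YTHDF1). The labels do not say what the numbers stand for.

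A typical TRIM protein carries a RING finger, which binds an E2 enzyme and gives ligase activity, followed by B-box zinc fingers and a coiled coil through which the proteins pair. The carboxy-terminal domain then sets what is bound, and the PRY-SPRY domain found in the largest subfamily recognises viral capsids, antibodies or signalling proteins. Many members act in innate immunity, and several are induced by interferons through response elements in their promoters.

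Because interferon elements lie in the promoters of such genes, the promoter windows of the members, from 250 bases before to 50 bases after an annotated start, were read from RefSeq (GRCh38.p14). Windows were found for 37 of the 49 members, 55 windows in all, since some genes have several starts. The letters GAAANNGAAA or, on the other strand, TTTCNNTTTC, which are the core of the interferon-stimulated response element (ISRE), stood in 9 of 55 member windows (16.4%) against 3.57% of all 35116 windows. They were in 6 of 10 windows of the interferon-inducible members listed further on (TRIM5, TRIM14, TRIM21, TRIM26, TRIM34 and TRIM69, but not TRIM25, TRIM38 or TRIM56) and in 3 of 45 windows of the other members (TRIM2, TRIM16 and TRIM44). The symmetric letters TTCNNNGAA, the core of the gamma-activated site (GAS), stood in 8 of 55 member windows (14.5%), in 0 of the 10 windows of the interferon-inducible members and in 7.66% of all windows. A match describes letters in the window and does not show that a factor binds there. The ISRE matches of the interferon-inducible members are printed here, 5′ to 3′ on the strand of the gene, with the matching letters in capitals, because the same genes are followed through the measurements.
TRIM5, chr11:5685082-5685111, minus strand: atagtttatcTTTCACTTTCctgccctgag
TRIM14, chr9:98119229-98119258, minus strand: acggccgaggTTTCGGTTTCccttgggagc
TRIM21, chr11:4393666-4393695, minus strand: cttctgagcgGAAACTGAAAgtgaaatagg
TRIM26, chr6:30213581-30213610, minus strand: tcccgcctgaTTTCAGTTTCcatttcgctg
TRIM34, chr11:5624901-5624930, plus strand: gccccaaaaaTTTCACTTTCatttctcagg
TRIM69, chr15:44736456-44736485, plus strand: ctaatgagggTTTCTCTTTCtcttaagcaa

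Counted from the start, the matches of TRIM5 and TRIM14 began at positions -27 and -26, those of TRIM69, TRIM34 and TRIM26 at -62, -90 and -194, and that of TRIM21 at 18, inside the transcript. In TRIM21 and TRIM26 a second match overlapped the one shown.

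Levels were compared between genes per length, as CPM per kilobase of exon (RPKM). TRIM28, the corepressor that KRAB zinc-finger proteins recruit to silence transposable elements, was the highest member, at 184, 153, 178 and 162 RPKM. TRIM25, which ubiquitinates the RNA sensor RIG-I, followed at 73.7, 79.4, 73.8 and 78.6 RPKM, and TRIM21, a cytosolic receptor for antibodies, at 64.7, 78.4, 63.8 and 76.6 RPKM. The libraries of TRIM28 lay above all those of TRIM25, whereas the ranges of TRIM25 and TRIM21 overlapped. TRIM27 came next with a mean of 35.2 RPKM and no overlap with its neighbours in the order. TRIM26 (23.1 RPKM), TRIM37 (22.5 RPKM), which restrains centriole formation, and TRIM47 (21.9 RPKM) overlapped each other. The same held from TRIM14 (19.9 RPKM), a RING-less adaptor of antiviral signalling, through TRIM74 (19.4 RPKM) to TRIM44 (18.0 RPKM), which has a ubiquitin-binding zinc finger in place of the RING. In all 15 members had a mean of at least 10 RPKM, 25 lay between 1 and 10 RPKM and 9 were under 1 RPKM, and the median member stood at 5.51 RPKM.

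**Figure D1:**
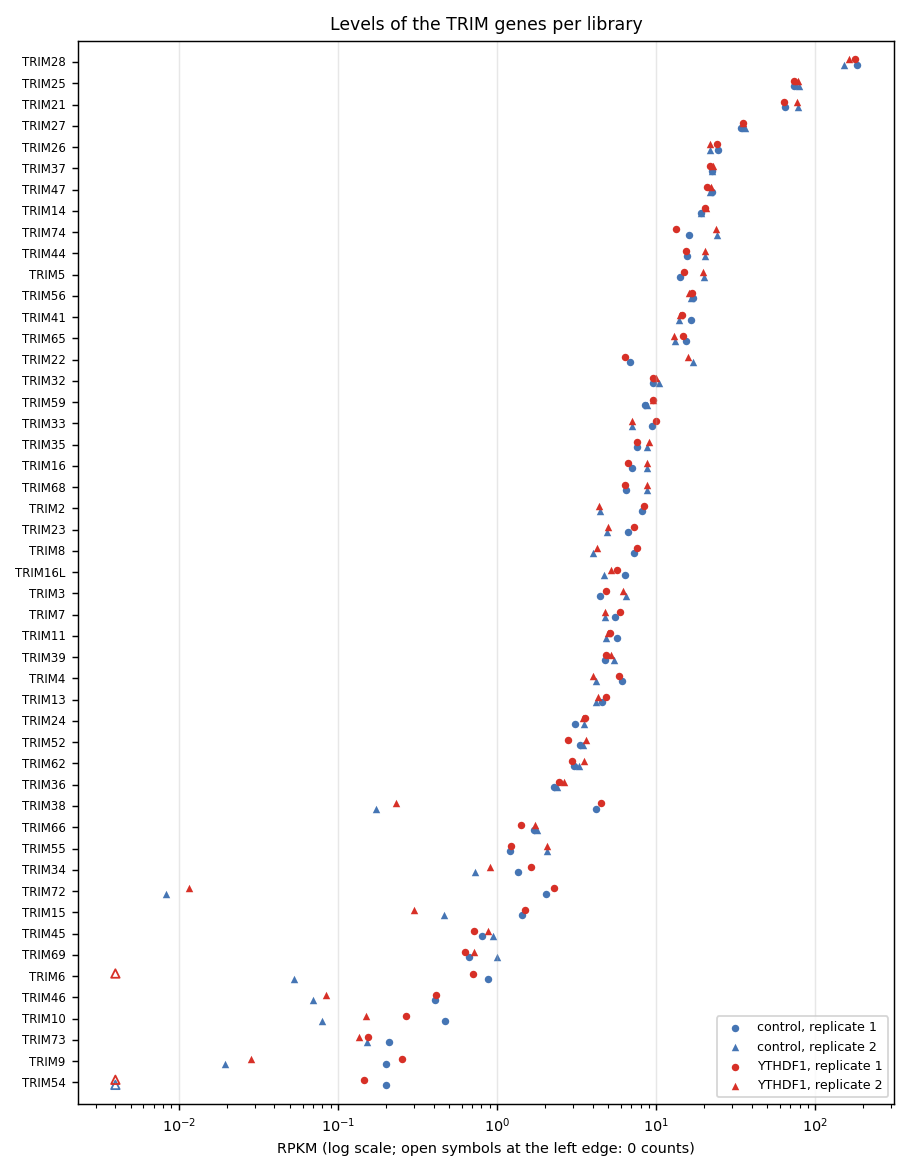
Level of each of the 49 TRIM genes in RPKM on a log axis, 1 symbol per library, ordered by the mean over the 4 libraries. TRIM28 stands at the top with 153 to 184 RPKM, and the widest spreads, in TRIM72, TRIM6, TRIM38 and TRIM54, separate the circles of replicate 1 from the triangles of replicate 2 and not the colours of the vectors.

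The family as a whole held a steady share of the transcriptome. The 49 genes summed to 2889, 2822, 2872 and 2852 CPM, between 0.279% and 0.293% of counted reads. TRIM28 and TRIM25 together took between 32.2% and 33.5% of the family's reads. In what follows a level within a gene is in CPM and a difference is a log2 fold change. In RNA from a whole culture, fewer cells that express a gene and less of its RNA per cell cannot be told apart.

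The vectors were compared first, to ask whether YTHDF1 overexpression altered the family under IFN-γ. The study's rule asks for an absolute log2 fold change of 0.5 or more and an unadjusted p under 0.05, here from edgeR's quasi-likelihood test. It called no member (0 of 49), where 0.101% of all genes tested were called, 0.0225% higher and 0.0787% lower. The paper reports more genes in each direction at these limits, so the shares given here are not the study's own. No member had an unadjusted p under 0.05 at any size in that test, in the Wald test of DESeq2 or in limma-voom. In the edgeR fit no log2 fold change reached 0.5 in size, while TRIM6, with 0 counts in 1 library, stood at -2.54 in limma-voom. The edgeR values ran from -0.46 to 0.35, with 23 members above 0 and 26 below. The median was -0.0079 for the members and 0.0047 for all genes tested, and the median size of the change was 0.057 and 0.069. The sign was the same within both replicate numbers for 28 of 49 members (57.1%), against 49.2% of all genes tested. The p-values measure the spread between these cultures, and 2 libraries a vector leave 2 residual degrees of freedom. The replicate number was not in these fits, so that spread includes the difference between the numbers. Of all genes tested only 24 had an unadjusted p under 0.05 in edgeR's quasi-likelihood test. Finding 0 among 49 members therefore says little about the vectors.

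TRIM59, a membrane-anchored member, had the smallest p. It stood at 60.4, 61.8, 67.6 and 67.7 CPM, so both YTHDF1 libraries lay above both control libraries. Its log2 fold change was 0.15 with a standard error (SE) of 0.074, and edgeR's quasi-likelihood p was 0.12 before adjustment and 1 after Benjamini-Hochberg adjustment over all genes tested. TRIM14 stood at 94.2, 94.1, 99.8 and 101 CPM (log2 fold change 0.09, SE 0.073), and TRIM36, a microtubule-associated COS-box member, at 12.9, 13.5, 13.9 and 14.9 CPM (0.13, SE 0.16). These 3 were the members whose vectors did not overlap, 6.12% of the family against 11.5% of all genes tested, and in each of them YTHDF1 was the higher vector.

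Among the members with a like sign in both replicate numbers, the 5 highest and the 5 lowest log2 fold changes were read out, TRIM59 and TRIM36 being among the highest. TRIM34 was at 3.48, 1.87, 4.23 and 2.33 CPM, a log2 fold change of 0.29 with an SE of 0.53. TRIM69, which binds microtubules and restricts vesicular stomatitis virus, was at 1.67, 2.50, 1.56 and 1.79 CPM, a change of -0.31 with an SE of 0.37. In both genes the vectors overlapped and the replicate numbers were farther apart than the vectors. The other values on the higher side were 0.16 for TRIM72 and 0.35 for TRIM9. On the lower side, beside TRIM69, stood TRIM6 at -0.39, TRIM73 at -0.31, TRIM66 at -0.15 and TRIM45 at -0.13, each with an SE larger than the value.

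The comparison of the replicate numbers asked how far the family moved between the cultures numbered 1 and 2, with the vector as a term in the model. In 44 of 49 members this difference was larger than that between the vectors, and the same count was not made over all genes tested. The median size over all genes tested was likewise larger between the numbers (0.31) than between the vectors (0.069). The pattern was thus not particular to the family. With an absolute log2 fold change of 0.5 or more and an adjusted p under 0.05 (edgeR's quasi-likelihood test, Benjamini-Hochberg over all 17781 genes), 15 of 49 members (30.6%) were called, where 25.8% of all genes tested were. Of the members, 3 were higher in number 2 (6.12%, against 9.71% of all genes), 12 were lower (24.5%, against 16.0%) and 34 were not called. The share called was thus near that of all genes. The median difference was 0.0066 for the members and -0.012 for all genes, and the median size was 0.29 and 0.31. The numbers did not overlap in 43 of 49 members (87.8%), against 77.1% of all genes tested. The sign was the same within control and within YTHDF1 cells in 45 of 49 members. Numbers that do not overlap always give such a like sign, so it held in at least 77.1% of all genes tested. The sign was alike in all 15 called members, which calls made from these same libraries favour. Of the 12 lower members 7 stayed under 5 CPM in every library, where 10 of all 49 members did.

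**Figure D2:**
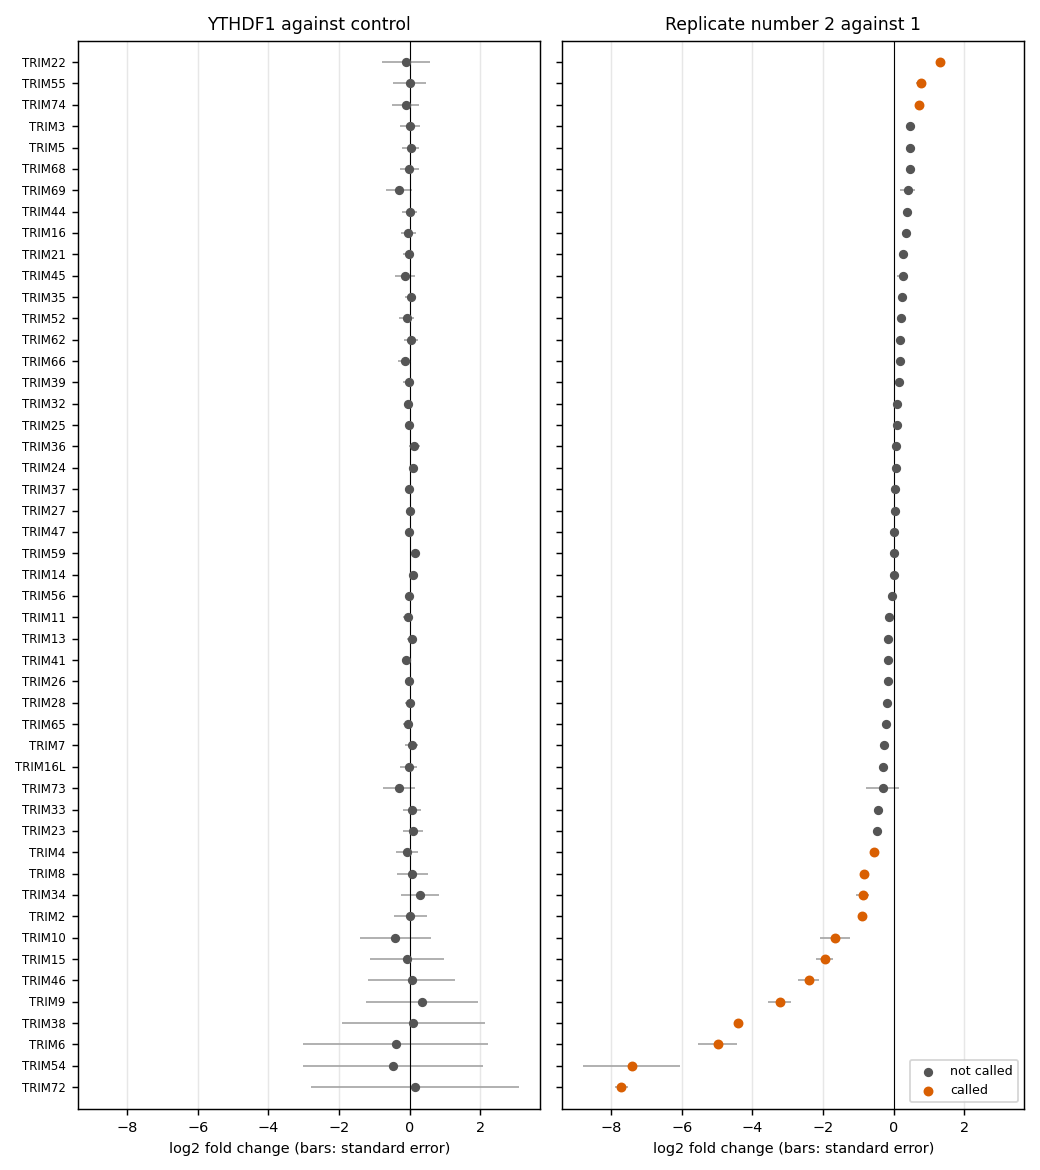
Log2 fold change of each member with its standard error, YTHDF1 against control on the left and replicate number 2 against 1 on the right, in the same gene order and on the same axis. All 49 values on the left lie between -0.46 and 0.35 with none called, and the 15 called members on the right run from -7.71 for TRIM72 to 1.32 for TRIM22.

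TRIM72 (chr16:31214119-31231537), also called MG53 and known for membrane repair in muscle, was at 17.3, 0.071, 19.3 and 0.099 CPM, from 1030, 4, 1136 and 6 counts. It was all but absent from both cultures numbered 2, with a log2 fold change of -7.71 (SE 0.19). TRIM54 (MURF3), a sarcomere-associated member on chromosome 2, had counts in the cultures numbered 1 only, where its mean of 0.363 CPM was at least 7.08-fold higher than in number 2, taking 3 counts per library as the limit there. TRIM54 and TRIM72 passed the filter on low counts through number 1 only, so they had to differ, and their values are given as a description. Without these 2, 13 of 47 members (27.7%) were called and 10 (21.3%) were lower. TRIM6 and TRIM9 each had 1 library of number 2 under 10 counts, so they too needed number 1 to pass the filter. With at least 10 counts required in every library, which leaves out all 4 genes, 11 of 45 members were called, 3 higher and 8 lower. Under that filter 3710 of all 15511 genes were called. The call of TRIM54 was lost in DESeq2's Wald test (adjusted p = 0.17).

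TRIM9, a neuronal COS-box member that acts in axon branching, was at 1.63, 0.16, 2.05 and 0.23 CPM, a fall of 3.23 on the log2 scale (SE 0.33). TRIM46, which organises microtubules at the axon initial segment, was at 1.77, 0.30, 1.78 and 0.36 CPM, a log2 fold change of -2.41 (SE 0.30, edgeR adjusted p = 0.00012). Both genes thus stood low in every library and lower still in number 2. TRIM55 (MURF2), another muscle member, went the other way at 3.65, 6.24, 3.67 and 6.24 CPM, with 0.77 (SE 0.15, edgeR adjusted p = 0.0017). Of the COS-box members other than TRIM54, 2 of 4 fell (TRIM9 and TRIM46), 1 rose (TRIM55) and TRIM36 was not called. Of all genes tested 16.0% were lower and 9.71% higher. TRIM9 is counted here although it needed number 1 to pass the filter on low counts.

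The subfamily lists did not overlap, and members without a RING were listed apart whatever their further domains. Among the members listed as PRY-SPRY other than TRIM72, 1 of 22 rose (TRIM22), 6 fell and 15 were not called, beside the same shares over all genes. TRIM6, among those that fell, also needed number 1 to pass the filter. TRIM38 (chr6:25962802-25991231), which restrains inflammatory and interferon signalling, was the largest change of a member above 20 mean CPM. It was at 39.7, 1.64, 42.4 and 2.19 CPM, so that both cultures numbered 1 lay near 40 and both numbered 2 near 2, a log2 fold change of -4.42 (SE 0.10, edgeR adjusted p = 8.8e-10). TRIM15, a focal adhesion protein, was at 3.23, 1.04, 3.36 and 0.68 CPM (-1.96, SE 0.24, edgeR adjusted p = 0.00011). TRIM10, known from erythroid cells, was at 1.68, 0.28, 0.95 and 0.53 CPM. Its log2 fold change of -1.66 (SE 0.43) had an edgeR adjusted p of 0.0087, and the call was lost with DESeq2's Wald test (adjusted p = 0.067), with no filter on low counts (0.053) and without control replicate 1 (0.064) or control replicate 2 (0.060). TRIM4 also fell, by 0.55.

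Outside these subfamilies 1 member rose and 2 fell. TRIM74, which has no further domain after the coiled coil, rose from 23.8 and 19.8 CPM in number 1 to 35.6 and 35.3 CPM in number 2 (0.71, SE 0.077, edgeR adjusted p = 4.3e-05). Its transcripts share 91.7% of their 50-base words with TRIM73, which was at 0.50, 0.37, 0.37 and 0.33 CPM, so the split of reads between the pair is uncertain. TRIM8, a partner of the cytokine-signalling inhibitor SOCS1, fell by 0.85 (SE 0.056), and TRIM2, an NHL-repeat ligase of neurons, fell by 0.90 (SE 0.055). TRIM2, TRIM4 and TRIM8 were picked out after their values were seen. Of the members listed as PHD-bromodomain (TRIM24, TRIM28 and TRIM33) and of the 5 in small or membrane-bound subfamilies, 0 were called. The same held for the 5 listed without a RING (TRIM14, TRIM16, TRIM16L, TRIM44 and TRIM66). Over the family 29 members had an adjusted p under 0.05 at any size, against 51.8% of all genes tested, and in 14 of these the change was under 0.5 (7 higher and 7 lower). TRIM44 was such a member, at 204, 262, 201 and 265 CPM (0.38, SE 0.043), and TRIM28 was another at -0.20 (SE 0.046). The other 20 members did not pass, and the largest size among them was 0.40.

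Of the 10 interferon-inducible members, listed since the cells had received IFN-γ, 1 rose between the numbers, 2 fell and 7 were not called, where 25.8% of all genes tested were called, and 0 were called between the vectors. Together they stood at 1036, 1095, 1042 and 1086 CPM. TRIM22, a restriction factor of several viruses, was at 20.5, 51.4, 19.0 and 47.7 CPM and rose by 1.32 on the log2 scale (SE 0.061, edgeR adjusted p = 1.1e-07). TRIM38 and TRIM34, a capsid-binding partner of TRIM5, were the members that fell, TRIM34 by 0.88 (SE 0.18, edgeR adjusted p = 0.0025).

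TRIM5, which binds retroviral capsids, was at 55.5, 78.2, 58.7 and 77.7 CPM, 0.45 on the log2 scale with an edgeR adjusted p of 5.5e-05 that passed the test but not the size of 0.5. TRIM21 was at 124, 151, 123 and 147 CPM (0.27, SE 0.044). TRIM25 was at 422, 455, 423 and 451 CPM (0.10, SE 0.040). In all 3 genes both libraries numbered 2 lay above both numbered 1, and the vectors overlapped. TRIM56, which acts in antiviral signalling by cytosolic nucleic acids, was the steadiest in this list apart from TRIM14, at 187, 182, 185 and 178 CPM (-0.05, SE 0.043). TRIM26 was at 87.3, 77.2, 85.1 and 77.8 CPM (-0.15, SE 0.047). TRIM69 had a difference of 0.40 (SE 0.22) and TRIM14 one of 0.0066 (SE 0.045), and neither passed.

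**Figure D3:**
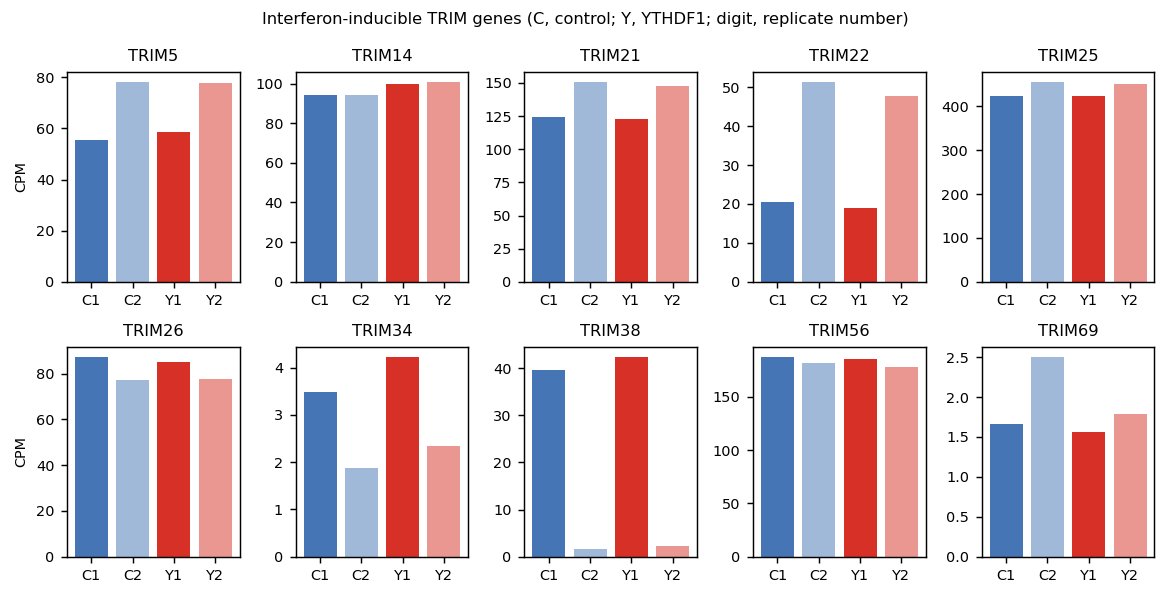
CPM of the 10 interferon-inducible members in each library, with bars from 0 and a separate axis for each gene, control in blue, YTHDF1 in red and replicate number 2 in the paler shade. TRIM22 is near 20 CPM in number 1 and near 50 CPM in number 2, TRIM38 is near 40 and near 2 CPM, and TRIM14, TRIM25 and TRIM56 are close to level.

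Neighbouring TRIM genes did not all share a direction. On chromosome 11 (GRCh38), TRIM5 spans 5588635 to 5685074 and holds TRIM6 and TRIM34 within its bounds, and TRIM22 starts at 5689790. TRIM6, which makes free ubiquitin chains in interferon signalling, was at 3.21, 0.19, 2.60 and 0 CPM and had the log2 fold change -4.99 (SE 0.56). This gene needed number 1 to pass the filter on low counts, so its value is given as a description. Its size rests on 11 counts in control replicate 2 and 0 in YTHDF1 replicate 2, and it moved to -3.89 without YTHDF1 replicate 2, to -10.43 without control replicate 2 and to -6.75 in DESeq2. TRIM6 and TRIM34 thus fell in number 2, TRIM22 rose and TRIM5 lay at 0.45, all within 1 stretch of the chromosome. TRIM34 shares 88.7% of its 50-base words with other transcripts, nearly all with the read-through gene TRIM6-TRIM34, and TRIM6 shares 28.4%, so reads may be split there. The read-through row itself held 0, 0, 0 and 3 counts. Strand use in the counting is not given in the sources used here.

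On the short arm of chromosome 6, TRIM38, TRIM10 and TRIM15 fell, and TRIM27 (0.03), TRIM26 (-0.15) and TRIM39 (0.15) were not called. TRIM10 (chr6:30151943-30164009) and TRIM15 (chr6:30163546-30172693) overlap at their ends. TRIM26 starts 11.8 kb beyond TRIM15 and was not called. The 15 called members lay on 10 chromosomes, with 3 each on chromosomes 6 and 11.

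**Figure D4:**
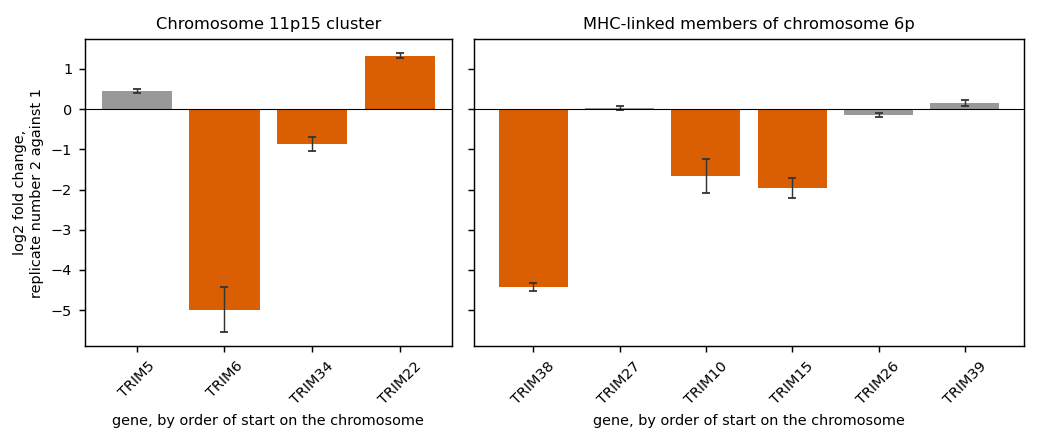
Log2 fold change of replicate number 2 against 1 with its standard error for the members of 2 chromosomal groups, in the order of their starts, called members in orange and others in grey. TRIM6 (-4.99), which needed number 1 to pass the filter on low counts, and TRIM22 (1.32) point in opposite directions on chromosome 11. On chromosome 6 TRIM38 (-4.42), TRIM10 and TRIM15 are negative beside TRIM27, TRIM26 and TRIM39 near 0.

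Genes that work with the family were read out by lists in the same fits. For each list the shares over all genes tested between the numbers were 25.8% called, 9.71% higher and 16.0% lower. Of 3 tested TRIM proteins that go by other symbols, PML, the organiser of nuclear bodies, rose between the numbers (0.54) at 139, 204, 145 and 209 CPM, and MID1 and MID2 were not called. Of 12 genes listed for signalling by cytosolic nucleic acids, among them the RNA sensor on which TRIM25 acts, IRF7, the interferon regulatory factor, rose by 0.86. In that list 5 fell, namely STING1 (-5.64), the sensor IFIH1 (-1.11), TANK (-0.94), TRAF3 (-0.91) and the adaptor MAVS (-0.54), where 16.0% of all genes tested were lower. DDX58, which encodes RIG-I, was at 126, 154, 133 and 150 CPM and was not called (0.23, SE 0.048). Of 8 partners of TRIM28, ZNF10 rose by 0.84, and the methyltransferase SETDB1 fell by 0.52, a share near that of all genes.

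Of 12 E1 and E2 enzymes, which pass ubiquitin to the ligases, 2 rose and 1 fell between the numbers. That share is near the 25.8% of all genes tested that were called. UBE2E1 rose by 0.57 and UBE2D4 by 0.54. UBE2E2 had a log2 fold change of -7.12, from 441 and 436 counts in number 1 to 3 and 3 counts in number 2, and it too passed the filter on low counts through number 1 only. No gene of these lists was called between the vectors. The one nearest to it was UBE2D1 at 25.2, 25.0, 32.1 and 32.1 CPM, whose edgeR quasi-likelihood p of 0.033 before adjustment went with a log2 fold change of 0.36, under the size of 0.5. Of the 6 epithelial markers 2 rose between the numbers (KRT8 by 0.79 and KRT18 by 1.01) and 2 fell (CLDN4 at -5.85 and CDH1 at -0.58). Beside them 25.8% of all genes tested were called. The summed level of these 6 markers was 4112 and 3916 CPM in number 1 and 6404 and 6717 CPM in number 2. Of the immune markers CD68 lay between 5.16 and 6.08 CPM and CD14 between 0.25 and 0.69 CPM. Of the fibroblast and endothelial markers COL1A1 was at 10.7, 5.69, 10.9 and 5.81 CPM, DCN had 0, 12, 0 and 10 counts, PECAM1 had 16, 0, 19 and 0, LUM and VWF had at most 17 and COL1A2 was at 0. The part of these markers in the differences between the numbers was not tested.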

How the data were processed

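Whole-number read counts per gene were deposited by the authors as 1 table of 4 libraries, without normalization. The submitters' processing notes name Trimmomatic, HISAT2 and GRCh38, and the counting tool and its strand setting are not given in the sources used here. Counts were filtered (filterByExpr), scaled by TMM and tested with edgeR 4.0.16 (quasi-likelihood) in R 4.3.3 over 17781 genes, with the vector alone or with the vector and the replicate number. CPM were computed on TMM-scaled library sizes. RPKM used the union of exons in GENCODE release 29. Alternatives were DESeq2 1.42.0 (size factors and Wald test), limma 3.58.1 (voom), edgeR's likelihood ratio test, other count filters, YTHDF1 left out of the library sizes, a replicate block and each library left out in turn. Scripts were tested on simulated data.

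The members and all lists were chosen with earlier results of these data known. Named were the 10 interferon-inducible members, the 10 members of highest level, up to 8 members called in each direction between the numbers, up to 5 members in each direction by size of the vector difference with a like sign in both numbers, and called genes of the other lists. RefSeq promoter windows were not matched for TRIM4, TRIM8, TRIM11, TRIM13, TRIM16L, TRIM22, TRIM24, TRIM27, TRIM28, TRIM35, TRIM45 and TRIM55. Tables of proteins were not used here. Shared sequence was measured as the share of a gene's 50-base words found in transcripts of another gene. A marker gene is not reported here.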

Additional observations from a re-analysis of the deposited data

How the results depend on the processing

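Between the vectors 0 members were called under any alternative run. With the replicate block 0 of 49 were called while 192 of all genes tested were (1.08%), the members' median was -0.0083, and 1 member (TRIM59) had an unadjusted p under 0.05 (0.013). The numbers were not taken as pairs, since the labels give them no meaning and there are 2, although deviations of same-numbered libraries correlated at 0.90. Between the numbers 15 members were called, 11 with at least 10 counts in every library (of 45 left), 13 with DESeq2's Wald test, 14 without a filter, and 14 to 16 with a library left out. Over all genes the first 4 of these settings called 4579 of 17781, 3710 of 15511, 3519 of 17781 and 4068 of 26355, in that order. The members' median number difference was 0.0020 with DESeq2 size factors, 0.012 without a filter, 0.010 with library sizes that omit YTHDF1 and -0.041 to 0.015 with a library left out, and TRIM14 turned to -0.0032 with at least 10 counts. Leaving out a library unbalances vector and number, which the fit cannot tell apart. The median vector difference then ran from -0.053 to 0.042, and values crossed 0 for TRIM21 (-0.17 to 0.12), TRIM22 (-0.92 to 0.70), TRIM25 (-0.060 to 0.048), TRIM26 (-0.10 to 0.077), TRIM34 (-0.19 to 0.81), TRIM38 (-3.24 to 3.76), TRIM45 (-0.29 to 0.00079), TRIM5 (-0.20 to 0.30), TRIM6 (-9.65 to 2.73), TRIM69 (-0.58 to 0.0082), TRIM72 (-6.42 to 7.06) and TRIM9 (-1.94 to 2.83). Number differences crossed 0 for TRIM14 (-0.039 to 0.062), TRIM47 (-0.023 to 0.072) and TRIM59 (-0.063 to 0.10). In both comparisons these ranges were read out for chosen members only, so others may cross 0 as well. Depth limits TRIM54, TRIM72, TRIM6 and TRIM9, which had under 10 counts in a library.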

Other observations

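Rows with TRIM names outside the family rule were read as values. TRIML2, a protein-coding TRIM-like gene chosen after its values were seen, had 329, 0, 331 and 0 counts in control replicates 1 and 2 and YTHDF1 replicates 1 and 2, at least 109-fold higher in number 1 than in number 2, taking 3 counts per library as the limit there. The pseudogenes TRIM51DP (5.57, 10.9, 7.86 and 11.1 CPM) and TRIM51FP (1.77, 3.70, 2.26 and 4.01 CPM) were higher in number 2, by 0.73 and 0.94 on the log2 scale (edgeR adjusted p = 0.0011 and 0.0019). The read-through row TRIM39-RPP21 held 41, 57, 115 and 5 counts, and TRIM59-IFT80 held 273, 500, 416 and 259 counts. In these 2 rows the libraries that share a replicate number were not alike.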
